A study of Mus musculus with 4 samples.

Results

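Interleukins and colony-stimulating factors are secreted proteins by which leukocytes, epithelium and stroma signal to each other. Most act through a receptor built from 2 or more chains. The genes described here were taken by symbol, as those starting with Il and a digit or with Csf2 or Csf3, leaving out Il6, Il6st, Il11, Il11ra1 and Il13ra2. They number 84 of the 54152 genes in the deposited table, of which 37 encode ligands, 40 receptor chains and 5 antagonists or decoys. Il4i1 (an amino acid oxidase) and Il1bos (an RNA antisense to Il1b) carry matching symbols without being cytokines. The RNA came from whole uteri taken on day 4 of pregnancy from C57 mice, and was sequenced as 2 libraries of p38α genotype dd and 2 of genotype ff. The series title speaks of p38α knockout and wild-type uteri. The labels give neither the driver of the deletion nor the deleted part of Mapk14 (the gene of p38α), the age of the mice, or whether animals were pooled.

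In the mouse uterus GM-CSF (Csf2) and G-CSF (Csf3) act on myeloid cells, and IL-15 supports the natural killer cells that gather around implantation sites. GM-CSF, IL-3 and IL-5 signal through receptors of a ligand-specific alpha chain and a shared beta chain. IL-2, IL-4, IL-7, IL-9, IL-15 and IL-21 share the gamma chain encoded by Il2rg. Members of the IL-1 family signal through MyD88 and NF-κB, and most of the others through JAK kinases and STAT factors.

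The 4 libraries held between 24619850 and 32451670 counts. Mapk14 had 2481 and 3429 counts in the libraries labelled dd, against 3074 and 2710 in those labelled ff (log2 change 0.28, edgeR adjusted p = 0.12). The whole-gene count therefore does not show the deletion, and all directions below rest on the labels alone. Markers of the uterus were present in all libraries, with summed CPM (counts scaled to a common library size by TMM factors) of 7468 and 10753 for 11 stromal genes in dd and 14028 and 15818 in ff, of 6438 to 11323 for 8 myometrial genes in dd and 7015 to 8249 in ff, and of 2673 to 3148 for 10 epithelial genes in dd and 1138 to 1377 in ff. Red cell and oviduct markers summed to 361.3 and 433.3 CPM in dd and to 96.8 and 93.6 CPM in ff, with 6 of 7 called higher, and their part in the results was not tested. Labels do not tie the libraries to separate animals, so p-values measure the spread between these samples, which may be technical.

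Promoter sequences are shown for the 4 changed genes with the smallest p among those with an entry, of which 2 rose and 2 fell in dd. Each covers 250 bases before to 50 after the gene's start in the RefSeq table, on GRCm38.p6, the assembly of mm10, in the direction of the gene. For Il1r2, Il20rb and Il17re that start is not the one in GENCODE M21 (40074079, 100486788 and 113458484). Their windows therefore lie inside the genes as placed there. Capitals mark a match on either strand to TTGCNNAA (a C/EBP element) in Il20rb and to TTCNNNGAA (a STAT element) in Il1r2. The windows lie at chr9:100486424-100486723 on the minus strand for Il20rb, and on the plus strand at chr6:113458521-113458820 for Il17re, chr7:125603179-125603478 for Il21r and chr1:40085843-40086142 for Il1r2.
Il20rb: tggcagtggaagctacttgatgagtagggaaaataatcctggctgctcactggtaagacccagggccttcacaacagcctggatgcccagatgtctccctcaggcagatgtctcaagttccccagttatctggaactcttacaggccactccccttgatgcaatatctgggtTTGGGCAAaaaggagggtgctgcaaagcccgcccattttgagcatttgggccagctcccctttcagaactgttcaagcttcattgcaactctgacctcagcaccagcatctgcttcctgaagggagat
Il17re: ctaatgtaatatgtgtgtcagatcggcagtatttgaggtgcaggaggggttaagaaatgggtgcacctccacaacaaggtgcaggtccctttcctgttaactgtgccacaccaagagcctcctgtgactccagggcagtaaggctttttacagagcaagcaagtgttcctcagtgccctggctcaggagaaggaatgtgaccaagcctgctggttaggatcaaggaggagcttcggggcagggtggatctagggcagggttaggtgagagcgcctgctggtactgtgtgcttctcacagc
Il21r: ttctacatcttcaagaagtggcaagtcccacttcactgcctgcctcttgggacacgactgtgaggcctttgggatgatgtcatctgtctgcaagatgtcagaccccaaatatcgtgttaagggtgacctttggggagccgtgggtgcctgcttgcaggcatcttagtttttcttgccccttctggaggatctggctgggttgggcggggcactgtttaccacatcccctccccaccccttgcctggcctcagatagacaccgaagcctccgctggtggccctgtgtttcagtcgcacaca
Il1r2: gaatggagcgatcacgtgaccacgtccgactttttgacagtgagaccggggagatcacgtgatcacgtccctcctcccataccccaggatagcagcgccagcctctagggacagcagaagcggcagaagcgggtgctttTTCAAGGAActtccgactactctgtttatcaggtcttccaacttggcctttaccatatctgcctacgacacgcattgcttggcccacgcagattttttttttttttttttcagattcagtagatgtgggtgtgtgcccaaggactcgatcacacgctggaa

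The match begins 78 bases before the RefSeq start in Il20rb and 111 bases before that of Il1r2, and Il17re and Il21r held none of the 4 motifs searched on both strands. Of 65 members with a promoter entry, 15 (23.1%) held TTGCNNAA, against 12.2% of 27025 genes with an entry. The shares were 18.5% and 9.55% for TTCNNNGAA, 16.9% and 8.97% for TGANTCA (AP-1), and 9.23% and 1.45% for GGANTTTCC, 9 letters of the NF-κB element. Among the 9 changed members with an entry, 3 held the C/EBP, 2 the STAT, 1 the AP-1 and 1 the NF-κB motif. The NF-κB match lay in Il1rl2, 116 bases before its RefSeq start, and the other 5 members with this motif were Il12a, Il13, Il16, Il18rap and Il1rl1. A match is a run of letters and was not tested as a binding site.

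Filtering on low counts left 48 of the 84 members for testing. In the libraries labelled dd, 4 of them rose, namely Csf3, Il17re, Il20rb and Il1f6. Another 11 fell, among them chains of the GM-CSF and IL-3 receptors (Csf2ra, Il3ra, Csf2rb, Csf2rb2), IL-15 with its receptor chains (Il15, Il15ra, Il2rb), and the chains Il21r, Il10ra, Il1rl2 and Il1r2. Calls are at a Benjamini-Hochberg adjusted p under 0.05 in edgeR's quasi-likelihood test over all 18530 genes tested. Of the tested members 31.2% were called, against 8.39% of all genes tested. The share called higher was 8.33%, against 4.52% of all genes, and the share called lower was 22.9%, against 3.86%. At an unadjusted p under 0.05 the members numbered 27 (56.2%), against 29.3% of all genes. In 30 of the 48 both dd libraries lay below both ff libraries (62.5%, against 31.3% of all genes), and in 7 both lay above (31.6% of all genes). The median log2 change of the tested members was −0.45, and that of all genes 0.00. Il1f6 passed the filter through the dd libraries alone. Il1r2, Il1b and Il1rn reached its cut in both ff libraries and in 1 dd library, so their dd counts alone would not have passed. The shares above therefore describe the members that passed and not all 84. In whole tissue, fewer cells of a type and less RNA per cell cannot be told apart.

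**Figure D1:**
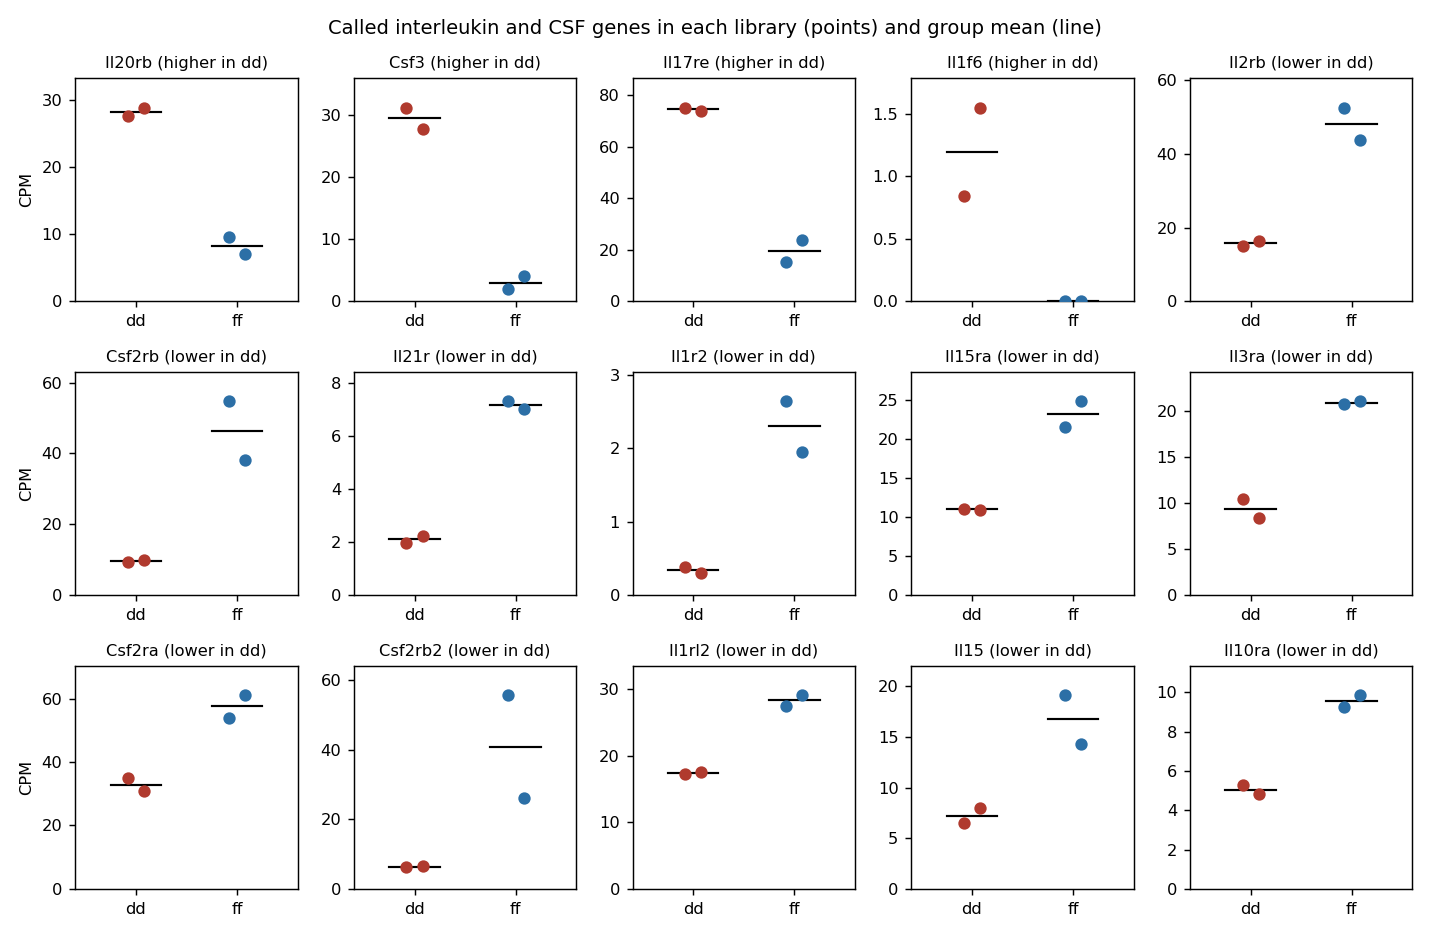
CPM of the 15 changed interleukin and colony-stimulating factor genes in each library, with dd libraries left and ff libraries right in every panel, points for single libraries and lines for group means, on linear axes from 0. In all 15 panels the points of the groups do not overlap, with 4 genes higher and 11 lower in dd. The genes were picked by calls on these same libraries, so the lack of overlap is no separate support. Of all genes tested, both dd libraries lay above both ff libraries in 31.6% and below them in 31.3%.

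Csf3, the ligand G-CSF that drives neutrophil production, rose most among called members with counts in both groups. It had 738 and 841 counts in the libraries labelled dd, against 66 and 125 in those labelled ff. Both dd libraries stood far above both ff libraries, while the ff libraries themselves differed 2-fold in CPM (ratio of replicate 1 to replicate 2 of 0.494). Its mean was 29.5 ± 2.46 CPM in dd and 3.0 ± 1.44 CPM in ff (SD, n = 2 each), a 9.85-fold increase (log2 3.30, SE 0.354, adjusted p = 0.0222). Leaving out ff replicate 2 gave a log2 change of 3.89 and leaving out ff replicate 1 gave 2.88, and the call held whichever library was left out. The authors' deposited table lists Csf3 at 9.84-fold with p = 1.05e-10. Csf3 lies on chromosome 11 (98701263 to 98703629, plus strand, mm10) and no annotated gene overlaps it.

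Csf3r, the receptor of G-CSF on neutrophils and their precursors, did not pass. It had 73 and 107 counts in dd and 143 and 214 in ff (log2 −0.75, adjusted p = 0.185). Per length, the deposited FPKM of Csf3 was 25.8 and 20.1 times that of Csf3r in the dd libraries and 1.18 and 1.49 times in the ff libraries. Neutrophil markers gave no common shift. Of 10 listed markers 4 were tested and 1, Ltf, was called higher. Ltf made up 97.2% of their summed level (410.1 and 278.9 CPM in dd, 8.32 and 21.1 CPM in ff). That sum therefore follows Ltf and is not a level of neutrophils, and the cell source of Ltf was not tested. S100a9, tested as well, had 4 and 3 counts in dd and 17 and 37 in ff (log2 −2.65, adjusted p = 0.077), so it ran against Ltf, and Mpo had a log2 change of 0.50 (adjusted p = 0.43). Of those with too few counts to test, Ly6g had 8 and 8 counts in dd and 6 and 10 in ff, S100a8 had 6 and 4 in dd and 6 and 28 in ff, Cxcr2 had 0 and 3 in dd and 3 and 20 in ff, and Elane had 0 in all libraries.

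Il17re, a chain that joins Il17ra to form the receptor of the epithelial cytokine IL-17C, rose. It had 1778 and 2241 counts in the libraries labelled dd, against 514 and 741 in those labelled ff. The dd libraries were nearly equal after scaling, at 74.6 ± 0.9 CPM, and the ff libraries averaged 19.6 ± 5.9 CPM (SD, n = 2 each). The increase was 3.81-fold (log2 1.93, SE 0.218, adjusted p = 0.0235) and did not pass without dd replicate 2 (log2 1.94, adjusted p = 0.0557). Over all fits with 1 library left out its log2 change was 1.65 to 2.27. Relative to Il17ra within the same library, the FPKM of Il17re was 4.34 and 5.25 in dd and 0.823 and 1.31 in ff. The gene lies on chromosome 6 (113458484 to 113470758, plus strand).

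The other IL-17 receptor chains did not pass. Il17rb, which binds IL-25 and IL-17B, had the highest level of all members at 134.9 and 87.7 FPKM in dd and 82.1 and 136.5 FPKM in ff, and its groups overlapped (log2 0.03, 95% interval −0.81 to 0.86). It overlaps Actr8 on the opposite strand. Il17rc, the partner of Il17ra for IL-17A and IL-17F, stood at 15.4 and 15.8 FPKM in dd and 12.7 and 12.6 FPKM in ff, without overlap and without passing (log2 0.30, adjusted p = 0.0995). Il17ra had 605 and 630 counts in dd and 922 and 832 in ff (log2 −0.23, adjusted p = 0.334). Il17rd, a chain that also restrains FGF signalling, had 538 and 930 counts in dd and 1260 and 1097 in ff (log2 −0.45, adjusted p = 0.162). Among the ligands Il17d alone was tested, at 80 and 95 counts in dd and 166 and 112 in ff (adjusted p = 0.371). Il17c had 4 and 8 counts in dd and 1 and 4 in ff, and Il17a, Il17f, Il17b and Il25 had at most 5 counts in any library.

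Il20rb, the beta chain shared by the receptors of IL-19, IL-20 and IL-24, rose 3.40-fold. It had 653 and 877 counts in the libraries labelled dd, against 318 and 221 in those labelled ff, or 28.3 ± 0.929 and 8.32 ± 1.74 CPM (log2 1.76, SE 0.183, adjusted p = 0.0214). Both dd libraries lay well above both ff libraries in CPM. Leaving out dd replicate 2 ended the call (log2 1.73, adjusted p = 0.0557). Its partner Il20ra did not pass, with 51 and 49 counts in dd and 210 and 40 in ff, so that ff replicate 1 stood above 3 libraries that were alike (log2 −1.01, 95% interval −2.98 to 0.95). The FPKM of Il20rb over that of Il20ra was 7.39 and 10.3 in dd and 0.874 and 3.19 in ff. Il20rb is on chromosome 9 (100457719 to 100486788, minus strand). Its ligands Il19, Il20 and Il24 had at most 5 counts in any library, so no difference in them was detectable at this depth.

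Alongside Il17re and Il20rb, markers of the uterine epithelium were higher in dd. All 10 had log2 changes above 0, Krt8, Krt18, Krt19 and Cdh1 were called higher, and the median was 0.97. Their summed level was 2673 and 3148 CPM in dd and 1138 and 1377 CPM in ff, and none was at 0 in either group. The oviduct markers Ovgp1 and Foxj1 were higher too (4.75-fold and 3.68-fold, edgeR adjusted p = 0.00644 and 0.0465). The part of these shifts in the increases of Csf3, Il17re and Il20rb was not tested.

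Within the IL-36 branch of the IL-1 family Il1f6 was highest in dd replicate 2, and Il1f8 and Il1f9 in ff replicate 1. Il1f6, the gene of IL-36α, had 20 and 47 counts in the libraries labelled dd and none in either ff library. Il1f6 passed the filter through the dd libraries alone, so it was tested only because its dd counts were high enough. It was at least 26.7-fold higher in dd taking 3 counts over both ff libraries as the floor, with an edgeR adjusted p of 0.0325. That bound was 12.9 or 13.8 when ff replicate 1 or 2 was left out, and 33.3 or 18.2 when dd replicate 1 or 2 was, and among these fits the call held only without ff replicate 2 (adjusted p 0.0476 to 0.0901). Il1f5, the gene of the IL-36 receptor antagonist, had 8 and 14 counts in dd and 0 and 1 in ff, a ratio of 26.3 (95% counting interval 4.25 to 1085) that covers counting error only. Il1f8 (IL-36β) had 107 and 198 counts in dd and 345 and 37 in ff. Both dd libraries lay between its ff libraries. Il1f9 (IL-36γ) had 3 and 1 counts in dd and 25 and 5 in ff and was not tested.

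Il1rl2, the receptor of the IL-36 ligands, fell to 17.3 ± 0.168 CPM in dd, against 28.3 ± 1.11 CPM in ff (SD, n = 2 each). Counts were 407 and 529 in dd and 915 and 905 in ff, with little spread within groups (log2 −0.70, SE 0.109, adjusted p = 0.0326). Fits with 1 library left out did not call it, at log2 changes of −0.74 to −0.67 and adjusted p of 0.0791 to 0.101, nor did limma-trend (adjusted p 0.0551 and 0.0586). Il1rap, the accessory chain it shares with the IL-1 and IL-33 receptors, had 223 and 270 counts in dd and 383 and 336 in ff and did not pass (adjusted p = 0.29). Il1f8, Il1f9, Il1f6, Il1f5, Il1f10 and the IL-1 antagonist gene Il1rn lie within 198.3 kb of chromosome 2 (24153161 to 24351494).

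Il1r2, a decoy receptor that binds IL-1 without signalling, had the lowest log2 change of all tested members. It had 9 and 9 counts in the libraries labelled dd, against 88 and 61 in those labelled ff. All 4 libraries had few reads, and the groups were far apart all the same. Il1r2 reached the filter's cut in both ff libraries and in 1 dd library. Its dd counts alone would not have passed the filter, so it was tested only because of its ff counts. The mean was 0.339 ± 0.0593 CPM in dd and 2.30 ± 0.485 CPM in ff (log2 −2.76, SE 0.350, adjusted p = 0.0255), and the call held only without ff replicate 2 among fits with 1 library left out (log2 −2.96 to −2.53). The signalling receptor Il1r1 had 1822 and 2625 counts in dd and 3384 and 2841 in ff (log2 −0.24, adjusted p = 0.222). Per length, Il1r2 stood at 0.0165 and 0.0114 of Il1r1 in dd and at 0.0867 and 0.0716 of it in ff. Il1r2 overlaps Gm16894 on the opposite strand of chromosome 1.

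The IL-1 ligands themselves were scarce. Il1b had 7 and 14 counts in dd and 39 and 23 in ff (log2 −1.30, adjusted p = 0.128; −1.68 to −0.93 with 1 library left out). It overlaps Il1bos, which had 4 and 6 counts in dd and 8 and 18 in ff. Il1a had 5 and 5 counts in dd and 92 and 5 in ff, so its excess lay in ff replicate 1 alone and it did not pass the filter. Il1rn, the IL-1 receptor antagonist, had 6 and 21 counts in dd and 24 and 15 in ff (adjusted p = 0.751).

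In the IL-18 and IL-33 branches none of 6 tested members passed in edgeR, and DESeq2 called Il18r1 and Il33. Il18r1, the ligand-binding chain of the IL-18 receptor, had 231 and 557 counts in dd and 187 and 187 in ff. Its excess lay mostly in dd replicate 2 (log2 1.28, adjusted p = 0.0843). Dropping that library gave a log2 change of 0.75, and dropping dd replicate 1 gave 1.67 and a call (adjusted p = 0.0359). Il18rap, the accessory chain, had 48 and 38 counts in dd and 81 and 85 in ff (adjusted p = 0.255). Il18 stood at 6.81 and 5.82 FPKM in dd and 5.25 and 6.65 FPKM in ff, with overlapping groups. Il18bp, which binds and blocks IL-18, had 237 and 258 counts in dd and 472 and 363 in ff (log2 −0.48, adjusted p = 0.171). Il33, an alarmin held in the nucleus of stromal and endothelial cells, had 136 and 93 counts in dd and 457 and 298 in ff (log2 −1.41, adjusted p = 0.0866; −1.92 to −1.02 with 1 library left out). Its receptor Il1rl1 had 35 and 31 counts in dd and 39 and 43 in ff (log2 −0.03, 95% interval −0.86 to 0.79).

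**Figure D2:**
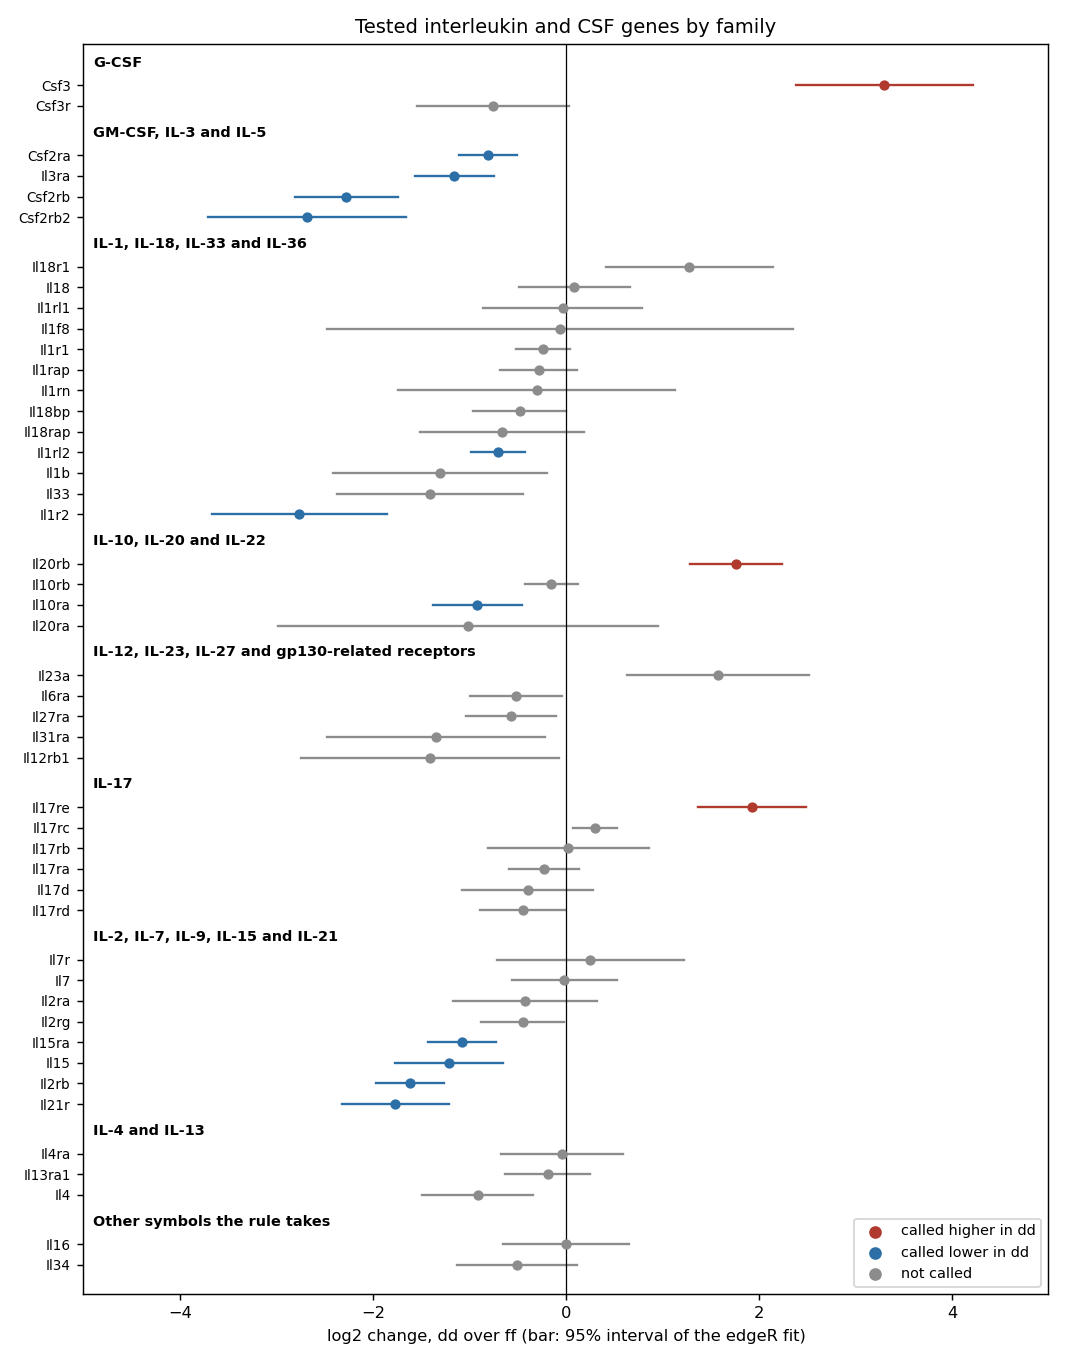
Log2 change of dd over ff for 47 of the 48 tested members, grouped by cytokine family, with bars for the 95% interval of the edgeR fit. Il1f6 is not drawn, since it has no count in ff. Intervals are widest for Il1f8, Il20ra, Il1rn and Il12rb1.

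All 4 tested members of the GM-CSF, IL-3 and IL-5 family fell, and all of them are receptor chains. Csf2rb, the beta chain shared by the 3 cytokines, had 221 and 297 counts in the libraries labelled dd, against 1821 and 1189 in those labelled ff. It averaged 9.58 ± 0.319 CPM in dd and 46.4 ± 11.7 CPM in ff (SD, n = 2 each; log2 −2.28, SE 0.206, adjusted p = 0.0173), and its call held whichever library was left out (log2 −2.52 to −1.99). Csf2rb2, the beta chain that mice have for IL-3, had 148 and 196 counts in dd and 1853 and 809 in ff. The ff libraries differed 2.14-fold in CPM, and the log2 change of −2.68 (adjusted p = 0.0303) became −2.03 when ff replicate 1 was dropped and −3.13 when ff replicate 2 was. Dropping either dd library ended the call (adjusted p 0.0848 and 0.093). The beta chain genes are near-identical neighbours on chromosome 15, and the sources used here do not say how shared reads were assigned, so the split between them is uncertain.

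The alpha chains fell less on the log2 scale. Csf2ra, which binds GM-CSF, had 826 and 933 counts in dd and 1797 and 1903 in ff, or 32.9 ± 2.94 and 57.5 ± 5.03 CPM (log2 −0.81, SE 0.116, adjusted p = 0.0293). No fit with 1 library left out called it (adjusted p 0.0594 to 0.0903, log2 −0.89 to −0.72). Il3ra, which binds IL-3, had 246 and 255 counts in dd and 692 and 657 in ff (log2 −1.15, SE 0.159, adjusted p = 0.0279), and its call held only without dd replicate 1. The FPKM of Csf2rb over that of Csf2ra was 0.106 and 0.126 in the dd libraries and 0.40 and 0.247 in the ff libraries. The ligands were near the floor. Csf2 had 0 and 1 counts in dd and 3 and 5 in ff, a ratio of ff over dd of 6.69 with a counting interval of 0.898 to 297.1. Il5 had 2 and 3 counts in dd and 6 and 7 in ff, Il3 had none in any library, and the IL-5 receptor chain Il5ra had at most 4.

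Il15, Il15ra and Il2rb each fell in the libraries labelled dd, while Il2rg, the gamma chain, did not pass. Il15 itself had 153 and 241 counts in dd and 637 and 447 in ff, or 7.22 ± 1.05 and 16.7 ± 3.38 CPM (log2 −1.21, SE 0.217, adjusted p = 0.0409). It passed only without ff replicate 2 among fits with 1 library left out (log2 −1.41 to −0.99). Il15ra, the chain that presents IL-15 on the producing cell, had 260 and 331 counts in dd and 716 and 772 in ff (log2 −1.08, SE 0.137, adjusted p = 0.0255), and no fit with 1 library left out called it (adjusted p 0.0525 to 0.0733). The ratio of Il15 to Il15ra in FPKM was 1.16 and 1.43 in dd and 1.75 and 1.14 in ff, with overlapping groups.

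Il2rb, the signalling chain for IL-2 and IL-15 on natural killer and T cells, had the smallest p of all members. It had 356 and 494 counts in dd and 1750 and 1359 in ff, or 15.7 ± 0.877 and 48.1 ± 6.32 CPM (log2 −1.62, SE 0.135, adjusted p = 0.0165). Without ff replicate 1 its adjusted p was 0.0504, and it passed in the other such fits (log2 −1.75 to −1.47 in all of them). Il21r, the receptor of IL-21, had 46 and 68 counts in dd and 243 and 218 in ff (log2 −1.77, SE 0.216, adjusted p = 0.0247), and its call held only without ff replicate 2. The common gamma chain Il2rg had 322 and 326 counts in dd and 557 and 515 in ff, without overlap and without passing (log2 −0.45, 95% interval −0.88 to −0.02, adjusted p = 0.16). Il2rb stood at 0.616 and 0.844 of Il2rg in FPKM in dd, and at 1.75 and 1.47 of it in ff.

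Other members that use the gamma chain did not pass. Il2ra, the IL-2 chain of activated and regulatory T cells, had 28 and 30 counts in dd and 53 and 41 in ff (adjusted p = 0.384). Il7, a survival factor of lymphocytes, had 106 and 125 counts in dd and 139 and 141 in ff (log2 −0.02, 95% interval −0.56 to 0.53), and Il7r had 21 and 37 in dd and 23 and 34 in ff. Il4, the ligand of the IL-4 receptor, had 66 and 99 counts in dd and 201 and 168 in ff (log2 −0.91, adjusted p = 0.0748). It was called by DESeq2 and by limma-trend on log2(FPKM + 0.1). Il4ra stood at 14.7 and 9.16 FPKM in dd and 13.1 and 11.4 FPKM in ff, and Il13ra1, with which it forms the IL-13 receptor, at 13 and 10.8 FPKM in dd and 15.4 and 11.8 FPKM in ff. The groups overlapped for both (log2 −0.04 and −0.19). Il2, Il9, Il13, Il21 and Il9r had at most 6 counts in any library.

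Markers of natural killer and innate lymphoid cells were lower in the same libraries as Il2rb and Il15. All 9 had log2 changes below 0, Klrk1, Prf1, Eomes and Klrg1 were called lower, and the median was −1.77. The 9 include Areg (67 and 138 counts in dd, 481 and 279 in ff), whose cell source was not tested. They summed to 33.9 and 24.1 CPM in dd and to 106.6 and 87.3 CPM in ff, with none at 0 in a group. Prf1, the perforin gene, had 53 and 64 counts in dd and 392 and 269 in ff. T cell markers had none of 12 called by edgeR and 1 by DESeq2. At an unadjusted p under 0.05 in edgeR 3 of the 12 passed, against 29.3% of all genes. Their median was −0.21, with sums of 26.3 and 26.1 CPM in dd and 35.1 and 33.0 CPM in ff. B and plasma cell markers were higher, with 4 of 7 tested called and sums of 512.2 and 999.8 CPM in dd and 113.7 and 121.0 CPM in ff, of which Jchain made up 81.7%. The part of these shifts in the decreases was not tested.

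Lists of myeloid markers differed in direction beside the lower GM-CSF receptor chains. Among macrophage markers Adgre1, C1qa, C1qb, C1qc and Lyz2 were called lower of 10, 1 had a log2 change above 0, and the sums were 320.4 and 315.4 CPM in dd and 517.7 and 581.7 CPM in ff (median log2 −0.85). Of 8 dendritic cell markers Itgax was called lower, with sums of 35.6 and 35.1 CPM in dd and 58.7 and 54.9 CPM in ff (median −0.77). No marker of either list was at 0 in dd. Of 5 tested eosinophil markers Prg2 was called higher. Siglecf, Ccr3 and Ear2 had log2 changes of −0.88, −1.02 and −0.91 and were not called. Alox15 made up 99.4% of the list's sum (1151 and 978.2 CPM in dd, 717.9 and 234.7 CPM in ff), so that sum follows Alox15. Epx, which marks eosinophils, had 4 and 2 counts in both groups. None of the 5 tested mast cell and basophil markers was called by edgeR (1 by DESeq2), and Mcpt8 was at 0 in dd. At an unadjusted p under 0.05 in edgeR 3 of them passed, against 29.3% of all genes. Their median log2 change was 1.14, with 4 above 0 and Kit below it (−0.79). Kit made up 73.9% of the list's sum (67.8 and 43.4 CPM in dd, 85.1 and 47.7 CPM in ff), so that sum follows Kit. Endothelial markers fell too, with 8 of 9 called lower and sums of 633.0 and 680.5 CPM in dd and 1401 and 1200 CPM in ff (median −0.92). Stromal markers had 6 of 11 called lower (median −0.71). The part of these shifts in the decreases of receptor genes was not tested.

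**Figure D3:**
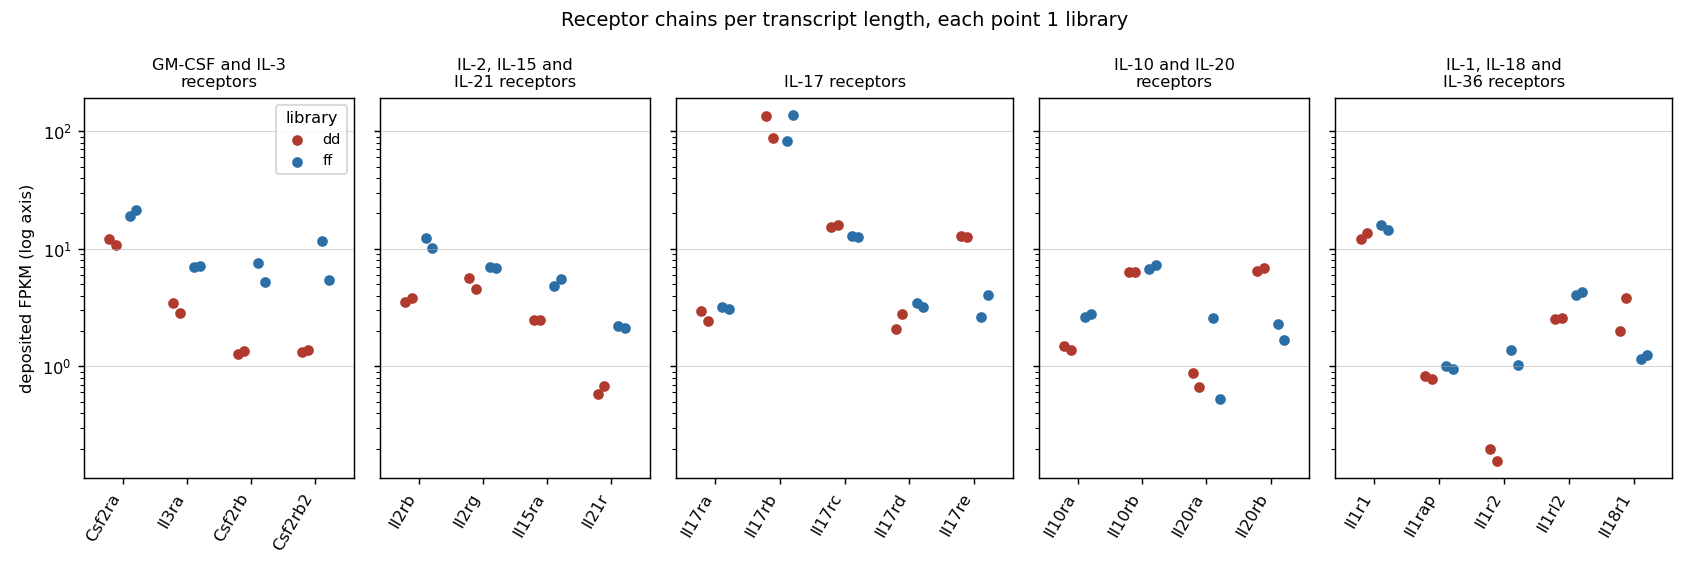
Deposited FPKM of receptor chains on a log axis, with dd libraries left of ff libraries for each gene and 1 point a library, so that chains can be compared per length. Csf2rb, Csf2rb2, Il2rb, Il21r and Il1r2 are lower and Il17re and Il20rb higher in both dd libraries, and Il17rb stands highest in all 4 libraries.

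Csf2rb2, Csf2rb and Il2rb lie within 212.8 kb of chromosome 15 (78282507 to 78495271), and all of them fell. Of the other 4 genes tested in that stretch 1 was called, higher in dd, and their median log2 change was 0.20. The 6 receptor genes of the IL-1 family on chromosome 1 (Il1r2, Il1r1, Il1rl2, Il1rl1, Il18r1 and Il18rap, 40074079 to 40551705) did not move together, since Il1r2 and Il1rl2 fell, Il18r1 had a log2 change of 1.28 and Il1rl1 one of −0.03.

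Il10ra, the chain that binds IL-10, fell to 5.06 ± 0.333 CPM in the libraries labelled dd, against 9.55 ± 0.427 CPM in those labelled ff (SD, n = 2 each). Counts were 125 and 146 in dd and 308 and 307 in ff (log2 −0.92, SE 0.178, adjusted p = 0.0477). Its adjusted p was the largest of the 15 calls, and no fit with 1 library left out called it (adjusted p 0.108 to 0.146, log2 −0.98 to −0.85), nor did limma-trend (adjusted p 0.0506 at both pseudocounts). The gene overlaps Gm20612 on the opposite strand. Il10rb, its partner and also a chain of the IL-22 receptor, had 571 and 725 counts in dd and 860 and 860 in ff and did not pass (log2 −0.15, adjusted p = 0.393). Il10, the regulatory ligand, had no count in dd and 6 and 7 in ff, at least 3.63-fold lower in dd with 3 counts over the dd libraries as the floor. Il22 had no count in any library, which allows at most 0.0901 to 0.127 CPM per library. Il22ra1 had 3 and 16 counts in dd and 8 and 7 in ff, and the soluble IL-22 binding protein Il22ra2 had none in dd and 3 and 2 in ff.

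None of the 5 tested members of the IL-12 family and the gp130-related receptors passed in edgeR (at an unadjusted p under 0.05 all of them did, 1 higher and 4 lower). Il23a, the p19 subunit of IL-23, had 58 and 70 counts in dd and 19 and 32 in ff, without overlap (log2 1.57, SE 0.366, adjusted p = 0.0682; 1.21 to 2.05 with 1 library left out). DESeq2 called it, and none of the other 4. Il12b, the subunit with which p19 pairs, had 3 and 4 counts in dd and 1 and 4 in ff, and Il23r at most 6 in any library. Il12rb1, a chain for IL-12 and IL-23, had 31 and 15 counts in dd and 92 and 61 in ff (log2 −1.41, adjusted p = 0.156; −2.24 to −0.85 with 1 library left out). Il31ra, the receptor chain of the itch cytokine IL-31, had 37 and 21 in dd and 89 and 94 in ff (log2 −1.35, adjusted p = 0.125; −2.02 to −0.86 in those fits). Log2 changes were −0.57 for Il27ra, the IL-27 receptor, and −0.51 for Il6ra, the ligand-binding chain for IL-6 (adjusted p = 0.12 and 0.149).

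Il16, a ligand of CD4, had 392 and 527 counts in dd and 431 and 653 in ff (log2 0.00, 95% interval −0.65 to 0.66). Il34, the second ligand of the CSF1 receptor, had 44 and 52 in dd and 85 and 79 in ff (log2 −0.51, adjusted p = 0.237).

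Of the 36 members that were not tested, 24 encode ligands, and the highest mean FPKM among them was 0.418. Their total over the 4 libraries reached 107 counts (Il1a), and Il3 and Il22 had none. Where 1 group held 1 to 3 counts and the other more, the 95% counting interval of the ratio excluded 1 for Il1f5 and included it for Csf2, Il12a, Il1rapl1 and Il20.

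Replicates of a group agreed for most members. Among those tested, Il12rb1, Il1rn and Il31ra differed at least 2-fold in CPM between the dd libraries (6.25% of 48, against 7.2% of all genes tested). Between the ff libraries Csf2rb2, Csf3, Il1f8 and Il20ra did (8.33%, against 6.47% of all genes). In CPM, ff replicate 1 exceeded ff replicate 2 by 17.2-fold for Il1a, 8.72-fold for Il1f8, 4.91-fold for Il20ra, 4.68-fold for Il1f9 and 2.14-fold for Csf2rb2.

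**Figure D4:**
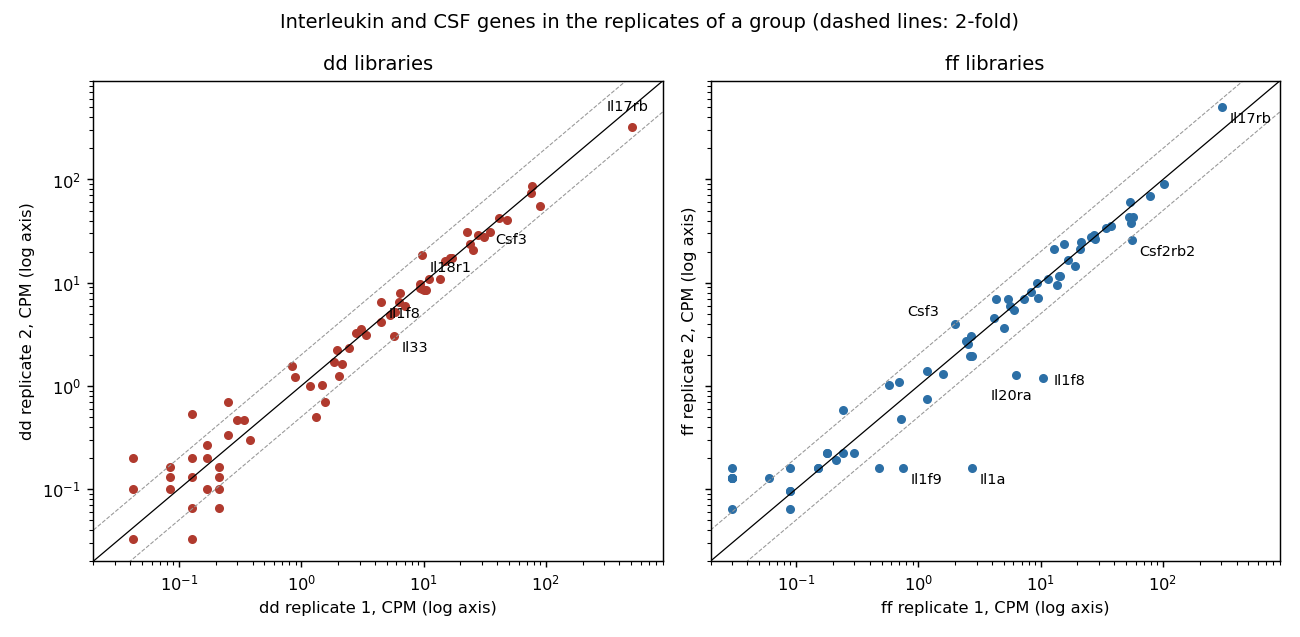
CPM of replicate 1 against replicate 2 on log axes for members with counts in both libraries of a group, dd left and ff right, with dashed lines at a 2-fold difference. Most points lie near the diagonal, and Il1a, Il1f8, Il1f9 and Il20ra lie far below it in ff.

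Downstream of the receptors, 85 of 88 listed signalling genes were tested. In dd 4 of them were called higher (4.71%, against 4.52% of all genes) and 8 lower (9.41%, against 3.86%), with a median log2 change of −0.11. Among 11 JAK and STAT genes Jak1, used by most of these receptors, fell to 195.6 ± 3.95 CPM in dd, against 351.7 ± 63.4 CPM in ff (log2 −0.85, adjusted p = 0.0402), and Jak3, which binds the gamma chain, fell to 30.5 ± 7.96 CPM, against 66.2 ± 5.96 CPM (log2 −1.12, adjusted p = 0.0402). The 7 STAT genes had log2 changes of −0.76 (Stat2) to 0.85 (Stat5a), and no STAT gene was called by edgeR. Of 15 brakes on this pathway Socs7 (log2 0.83) and Cish (0.69), which STAT5 induces, rose, and Socs3 (−1.69) and the adaptor gene Sh2b3 (−0.49) fell.

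No gene was called by edgeR among 19 adaptors and NF-κB subunits of the IL-1 pathway (median −0.02, 2 at an unadjusted p under 0.05, 1 by DESeq2). The same held for 8 NF-κB feedback genes (median 0.11, 0 by either count). It also held for 8 tested genes of IL-17 signalling (median −0.27, 3 at an unadjusted p under 0.05, 0 by DESeq2). That unadjusted cut in edgeR was passed by 29.3% of all genes. Among 10 tested genes of IL-1 family processing, Casp1 and Pycard, which build the inflammasome that cleaves IL-1β and IL-18, rose to 40.0 ± 3.40 CPM in dd against 21.9 ± 2.24 CPM in ff and to 33.5 ± 2.57 CPM against 20.7 ± 0.19 CPM. Gsdmd, the pore protein through which these cytokines leave the cell, fell (log2 −0.57, adjusted p = 0.0429). Of 14 partner cytokines and receptors outside the symbol rule, Crlf2 (log2 −1.11), which pairs with Il7r to bind TSLP, and the TNF receptor genes Tnfrsf1a (−0.97) and Tnfrsf1b (−1.41) fell, and the median was −0.65. Without dd replicate 1, dd replicate 2 or ff replicate 1, most signalling calls were lost, as were most calls over all genes.

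**Figure D5:**
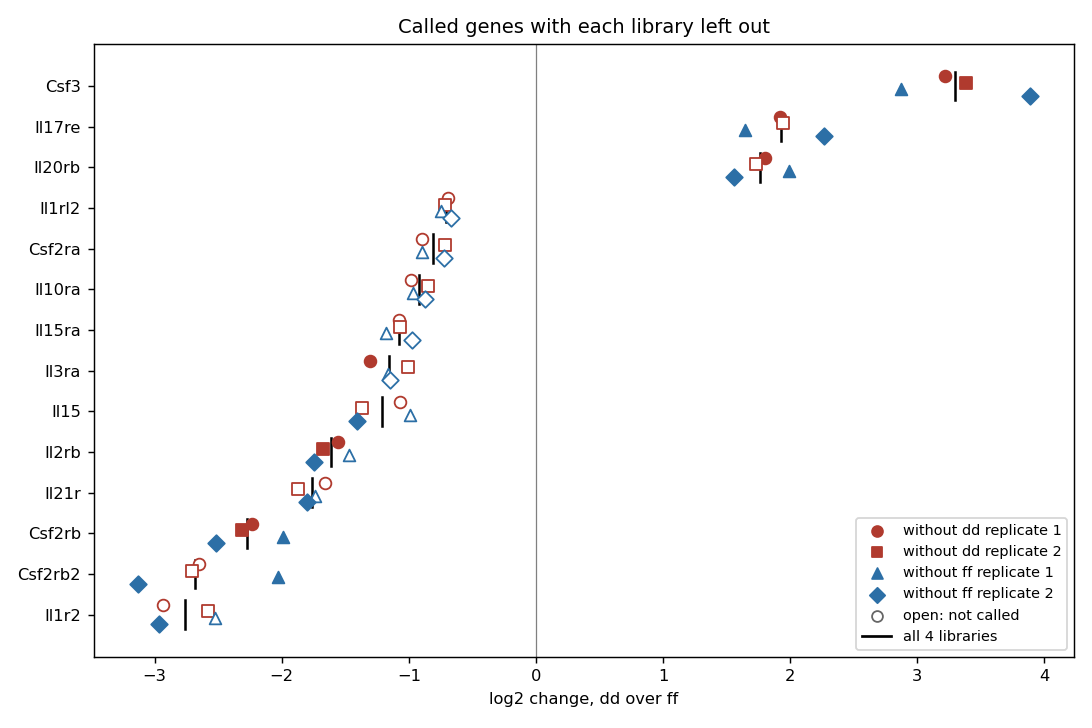
Log2 change of dd over ff for 14 of the 15 changed members (Il1f6 is not drawn) in fits with 1 library left out, with filled symbols where the gene was called and black ticks for all 4 libraries. Every symbol lies on the same side of 0 as its tick. That side could hardly change, since the dd and ff libraries of each of these genes do not overlap in CPM.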

How the data were processed

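RNA was extracted with TRIzol and sequenced from TruSeq libraries, per the labels' protocols, and the authors used STAR, edgeR and mm10, per the submitters' processing notes. The sources used here name no counter or annotation and do not say whether strand was used, so 28 members that overlap a gene on the opposite strand, 3 of them called, cannot be told from that gene if strand was ignored. The deposited table holds whole-number counts, a signal column of counts rescaled by the authors (not used), FPKM per the file headers, and the authors' fold (a ratio of dd over ff) and p-value, whose test is not given. Replicates differed beyond sampling noise (chi-square per degree of freedom 36.0 in dd, 35.3 in ff).

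Counts were tested with edgeR 4.0.16 in R 4.3.3 (TMM, filterByExpr, quasi-likelihood test, Benjamini-Hochberg over 18530 genes), checked on simulated data. Ratios with 1 to 3 counts in a group carry 95% counting intervals, and floors are 3 counts. Alternatives used limma 3.58.1 and DESeq2 1.42.0. Positions come from GENCODE M21. Full values were given for members called, those with an unadjusted p under 0.05 and an absolute log2 change of 1 or more, and the 10 highest in FPKM. Other members are given by counts or a level, and markers beyond the called ones were picked as the specific ones of a list. Members and lists were chosen with earlier results of these data known. The result of 1 marker list is not reported here.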

Additional observations from a re-analysis of the deposited data

How the results depend on the processing

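Of the 15 calls among members, all were kept with DESeq2 size factors, upper quartile factors, library size alone, no filter and DESeq2, 13 with limma-trend at either pseudocount, and 12 with the replicate block, which lost Il10ra, Il15 and Il1rl2 and added Il33. Replicate numbers did not pair the libraries (correlation of deviations 0.0129), and the block gave 4 members higher and 9 lower, 1531 genes in all, and 2 higher and 8 lower signalling genes. With 1 library left out, the lone library being assumed to vary like the other group, members higher numbered 1 to 4, members lower 2 to 7, signalling genes higher 0 to 2 and lower 0 to 6, and all genes called 90 to 1198, against 4, 11, 4, 8 and 1554. Members lower were 3, 2, 2 and 7 without dd replicate 1, dd replicate 2, ff replicate 1 and ff replicate 2, and members higher were 1 without dd replicate 2. Without a filter 7 members were higher, 13 signalling genes lower and 2947 genes called, and DESeq2 called 2864 genes. limma-trend called 2 signalling genes higher at both pseudocounts and 5 lower at 0.5. The log2 change of Il17rb turned to −0.022 with upper quartile factors and −0.061 with library size only. With 1 library left out it was −0.32 to 0.44, that of Il4ra −0.42 to 0.27 (0.069 without ff replicate 1) and that of Il13ra1 −0.37 to 0.017. None of these genes was called. The cause was not tested. Genes that did not reach about 0.327 CPM in at least 2 libraries were not tested.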
